A study of Homo sapiens with 8 samples.

Results

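The genes of translesion synthesis and fork bypass were followed in 92.1 and MEL290, both human lines labelled as uveal melanoma (UVM), after the level of APOBEC3B (A3B) was changed, a cytidine deaminase that converts cytosine to uracil in DNA. The genes were taken by symbol, 10 of the 19952 symbols listed in each library: REV1, POLI, POLK, REV3L, MAD2L2, POLQ, PRIMPOL, RAD18, HLTF and USP1. All 10 were listed in all 8 libraries and all 10 passed the filter on low values in each comparison. Each of 4 groups had 2 libraries: in 92.1, shCtrl (control) and shA3B (A3B knocked down), and in MEL290, NC (control) and A3B OE (A3B overexpressed). The methods describe hairpins against A3B in a lentiviral pGIPZ vector with an empty vector as control for 92.1, full-length A3B in a lentiviral pHAGE vector for MEL290, and puromycin selection of infected cells. The labels call both control groups controls, give no time after infection, and do not say which hairpin the sequenced cells carried or whether replicates came from separate cultures, so the p-values measure only the spread between these libraries, which may be technical.

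When a replicative polymerase meets a damaged base, such as the abasic site left after uracil is removed from DNA, the fork can bypass it in several ways. RAD18 attaches ubiquitin to the sliding clamp PCNA, which brings in the Y-family polymerases REV1, POLI and POLK to insert a base, and Pol zeta, built on REV3L and MAD2L2, extends from it. HLTF lengthens the ubiquitin chain on PCNA and remodels forks, USP1 removes the ubiquitin, PRIMPOL starts a new strand beyond the lesion, and POLQ joins broken ends left at collapsed forks. Proliferating cells of any type use these routes, and several of the genes are known to be transcribed more in cycling cells.

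The check of the targeted gene came out as labelled. APOBEC3B was at 35.9 and 32.3 FPKM (sequenced fragments scaled to transcript length and to library size) with shCtrl and at 1.98 and 2.37 FPKM with shA3B in 92.1, and at 2.67 and 2.19 FPKM with NC and 28.4 and 27.5 FPKM with A3B OE in MEL290. The files hold FPKM and no read counts, and a rough estimate from genes with very low values gave between 17000000 and 30900000 fragments a library. At that depth the values of the 10 genes rest on about 100 fragments (PRIMPOL in NC replicate 1) to about 4480 fragments (REV3L in shA3B replicate 2), and these numbers are loose. Melanocyte markers separated the lines. The summed FPKM of 7 such markers was between 7110 and 8710 in 92.1 libraries and between 15.2 and 20.7 in MEL290 libraries, where most of the sum was MITF and TYR was listed at 0 in all 4. MEL290 is labelled as uveal melanoma cells, and its pigment cell markers other than MITF were at or near 0. Over 11 markers of other cell types (immune, endothelial, epithelial, fibroblast and retinal pigment epithelium) the sum was between 22.9 and 42.2 FPKM in 92.1 and between 56.1 and 73.5 FPKM in MEL290. The sum was mostly CD68 in 92.1 and CD68 and COL1A1 in MEL290. BEST1, a retinal pigment epithelium marker, was between 4.63 and 5.21 FPKM in 92.1, above COL1A1. CD3E was listed at 0 in every library.

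Promoter windows of all 10 genes were found in RefSeq (build GRCh38.p14, 250 bases before to 50 after the start). They were searched on both strands for E2F-like letters (TTCCCGC or TTGGCGC or TTCGCGC or TTGCCGC), CHR-like letters (TTTGAA) and CCAAT, letters known from promoters of cell cycle genes. E2F-like letters were in the windows of 5 of the 10 genes, against 13.1% of all 27305 windows. CHR-like letters were in 3 of 10, against 15.4%, and CCAAT in 2 of 10, against 35.7%. The windows of the 10 genes have a GC content between 50.3% and 80.7%, and the shares over all windows were not matched for it. The 5 windows with E2F-like letters are shown because they include the genes that differed with A3B overexpression, POLQ and USP1, and 3 that did not pass that test. The sequences run 5′ to 3′ along each gene's strand, and the capitals mark the E2F-like match.
POLQ (chr3:121545956-121545985, minus strand): tttgaagactgGCGGGAAgatgtccgcagc
USP1 (chr1:62436410-62436439, plus strand): cgcgcactcgaGCGCCAAtgagagcggaag
REV1 (chr2:99489970-99489999, minus strand): cgcggggttggTTGCCGCgagcgtggggga
HLTF (chr3:149086708-149086737, minus strand): gcctcgtggctTTCCCGCgcgcccgccttg
POLI (chr18:54269350-54269379, plus strand): gcctccacccgGCGGGAAaaaactcccgca
In POLQ the match lay 14 to 20 bases after the start base and was preceded in the same stretch by the CHR-like letters, and in USP1 it lay 26 to 32 bases after the start base and overlapped a CCAAT. These are matches of letters, and binding was not measured.

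Levels spanned a wide range among the 10 genes. With shCtrl in 92.1, MAD2L2 was highest at 70.1 ± 1.29 FPKM (SD, n = 2) and POLQ lowest at 3.06 ± 0.0137 FPKM (SD, n = 2). POLQ was the lowest in all 4 groups, and MAD2L2, HLTF and USP1 were the 3 highest in both groups of 92.1. In MEL290 the 3 highest were HLTF, MAD2L2 and REV1. Replicates differed little for most of the genes, with a median coefficient of variation of 8.9% over the 40 group means and the highest, 30.2%, for PRIMPOL in NC cells.

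**Figure D1:**
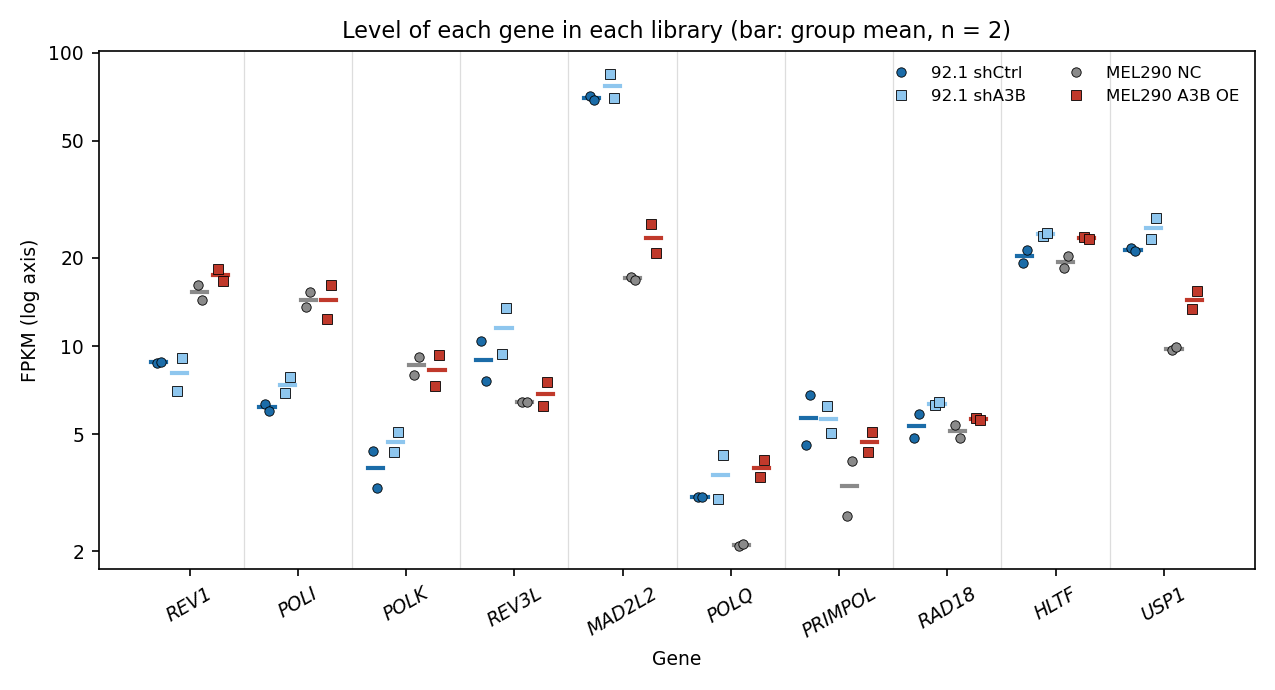
FPKM (log axis) of each of the 10 genes in each of the 8 libraries, with 2 points per group and a bar at the group mean. MAD2L2 lies between 69.1 and 84.3 FPKM in 92.1 and between 16.8 and 26.0 FPKM in MEL290, POLQ is lowest in every group, and REV1, POLI and POLK are higher in all MEL290 libraries than in all 92.1 libraries.

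The first question was whether these genes differed when A3B was overexpressed in MEL290. USP1 and POLQ rose, and the other 8 did not pass the test. Of the 10 genes, 2 were called, both higher, against a background of 17.8% of the 11611 genes tested, 10.3% called higher and 7.49% called lower (limma on log2(FPKM + 1), Benjamini-Hochberg adjusted p under 0.05). At an unadjusted p under 0.05 there were 4 of the 10, against 33.1%, and 8 of the 10 had a log2 fold change above 0, against 50.5%. The median difference of the 10 genes was 0.22 on the log2(FPKM + 1) scale, against 0.00 over all genes tested. This scale understates the change of genes at a few FPKM. In such bulk libraries fewer cells with a transcript and less of it per cell cannot be told apart. Groups of 2 against 2 cannot give an exact permutation p below 0.33, so single values were not tested that way.

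**Figure D2:**
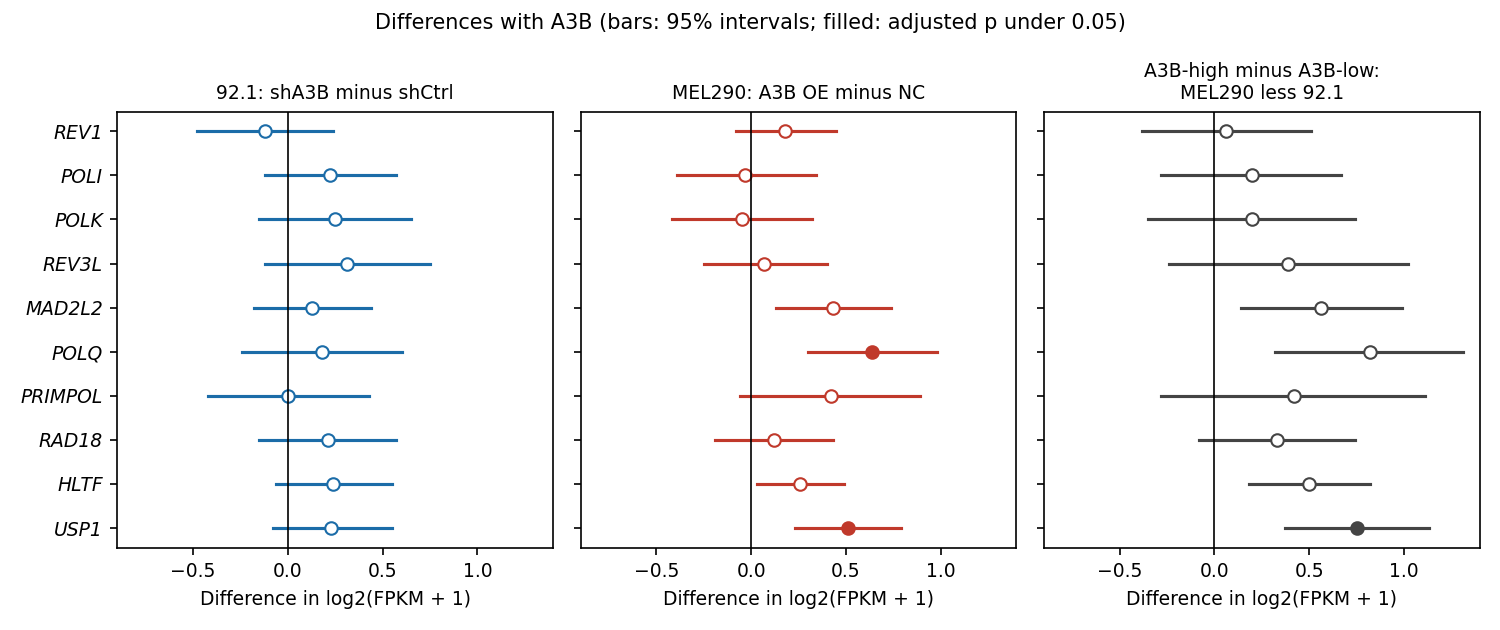
Difference in log2(FPKM + 1) of each gene, with 95% intervals from limma, for shA3B minus shCtrl in 92.1, A3B OE minus NC in MEL290, and the difference of the A3B-high minus A3B-low effects between the lines. Filled points have an adjusted p under 0.05: POLQ and USP1 in MEL290, and USP1 in the difference.

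USP1, the deubiquitinase that takes ubiquitin off PCNA and off FANCD2, lies on chromosome 1 from 62436297 to 62451804 (GRCh38, plus strand, 9 exons in the canonical transcript of GENCODE release 44). It was at 9.68 and 9.92 FPKM with NC and at 13.4 and 15.4 FPKM with A3B OE, 1.47 times the NC mean. Both A3B OE libraries lay above both NC libraries. The log2 fold change was 0.51 (standard error 0.11, 95% interval 0.23 to 0.79, limma, adjusted p = 0.031). Without A3B OE replicate 1 it was 0.60 (limma, adjusted p = 0.063) and without A3B OE replicate 2 it was 0.42 (limma, adjusted p = 0.13), fits in which the lone A3B OE library is assumed to vary like the NC libraries. Without a filter on low FPKM USP1 kept its log2 fold change of 0.51 and no longer passed (limma, adjusted p = 0.079). With the replicate number as a block it passed only just (limma, adjusted p = 0.05 after rounding).

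POLQ, the polymerase theta of microhomology-mediated end joining, lies on chromosome 3 from 121431431 to 121545988 (minus strand, 30 exons). Its values were 2.09 and 2.12 FPKM with NC and 3.59 and 4.09 FPKM with A3B OE, a ratio of means of 1.82, the largest among the 10 genes in this comparison. The groups did not overlap and the NC libraries were nearly equal. The log2 fold change was 0.64 (standard error 0.14, 95% interval 0.30 to 0.98, limma, adjusted p = 0.029). With the replicate number as a block it did not pass (limma, adjusted p = 0.056), nor without the filter on low FPKM (limma, adjusted p = 0.069). Without A3B OE replicate 1 or A3B OE replicate 2 it was 0.71 and 0.56 (limma, adjusted p = 0.086 and 0.14).

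MAD2L2, the HORMA-domain subunit of Pol zeta and of the shieldin complex, came close to the threshold. It was at 17.2 and 16.8 FPKM with NC and at 26.0 and 20.8 FPKM with A3B OE. The A3B OE libraries were both higher than the NC libraries and differed between themselves by more than the smaller of the 2 differed from NC. The log2 fold change was 0.43 (95% interval 0.13 to 0.74, limma, adjusted p = 0.064). Without A3B OE replicate 1 it was 0.28 (limma, adjusted p = 0.19). Of 9 other settings 2 called it, upper quartile scaling (limma, adjusted p = 0.042) and subtraction of a fitted dependence on GC content and length (limma, adjusted p = 0.029), and without the filter on low FPKM its adjusted p was 0.15 (limma). REV3L, the catalytic subunit of Pol zeta, had overlapping values, 6.46 and 6.45 FPKM with NC and 6.23 and 7.52 FPKM with A3B OE, and a 95% interval of -0.25 to 0.40. The FPKM ratio of MAD2L2 to REV3L was 2.66 and 2.60 with NC and 4.17 and 2.77 with A3B OE.

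The Y-family polymerases differed by less. REV1, which inserts cytosine opposite lesions and carries the docking surface for the other polymerases, was at 16.2 and 14.4 FPKM with NC and at 18.3 and 16.7 FPKM with A3B OE, with the groups just apart and a log2 fold change of 0.18 (95% interval -0.08 to 0.45, limma, adjusted p = 0.30). POLI, known for inserting bases opposite damaged purines, was at 13.6 and 15.3 FPKM with NC and at 12.4 and 16.2 FPKM with A3B OE. POLK, which bypasses bulky adducts on guanine, was at 8 and 9.21 FPKM with NC and at 7.30 and 9.32 FPKM with A3B OE. For both the A3B OE libraries lay on either side of the NC libraries. The 95% intervals, -0.39 to 0.34 for POLI and -0.42 to 0.32 for POLK on the log2 scale, include changes in either direction.

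Among the ubiquitin ligases, RAD18 was at 5.40 and 4.87 FPKM with NC and at 5.70 and 5.61 FPKM with A3B OE, a log2 fold change of 0.12 (95% interval -0.19 to 0.43). HLTF was at 18.4 and 20.3 FPKM with NC and at 23.6 and 23.1 FPKM with A3B OE, a log2 fold change of 0.26 (95% interval 0.03 to 0.49, limma, adjusted p = 0.12). PRIMPOL, the primase-polymerase, was at 2.63 and 4.06 FPKM with NC and at 4.37 and 5.08 FPKM with A3B OE. Its log2 fold change of 0.42 did not pass (95% interval -0.06 to 0.89, limma, adjusted p = 0.20), and it rested on the NC libraries: without NC replicate 1 it was 0.18 (limma, adjusted p = 0.63) and without NC replicate 2 it was 0.65 and passed (limma, adjusted p = 0.031). All 3 genes had A3B OE libraries above NC libraries. In all, 7 of the 10 genes had non-overlapping groups with A3B OE higher, against 31.5% of all genes tested, and 0 had A3B OE lower, against 29.7%.

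Part of the sequence of some genes is shared with a neighbour on the other strand, and the sources do not say that strand was used in the counting. PRIMPOL shares 431 exonic bases with CENPU, a kinetochore gene that rose with A3B OE (log2 fold change 0.97, limma, adjusted p = 0.019). HLTF shares 1649 exonic bases with GYG1, which had a log2 fold change of -0.32 (limma, adjusted p = 0.058), opposite in sign to HLTF. The part of these neighbours in the values of PRIMPOL and HLTF was not tested.

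Genes that work beside the 10 were grouped in 4 lists. For these lists, the shares over all genes tested were 10.3% called higher and 7.49% called lower. Of 15 genes of the PCNA ubiquitin pathway, 4 rose and 0 fell in A3B OE cells, with a list median of 0.08. PCLAF, which binds PCNA, rose from a mean of 62.1 to 137 FPKM (log2 fold change 1.12, limma, adjusted p = 0.00155) and TRAIP, a replisome ubiquitin ligase, from 2.73 to 6.81 FPKM (1.07, limma, adjusted p = 0.00586). PCNA itself rose from 75.9 and 74.8 to 102 and 99.1 FPKM (0.41, limma, adjusted p = 0.0125), and DTL, a receptor of the CUL4 ligase, was at the threshold (0.48, limma, adjusted p = 0.04999). WDR48, the activating partner of USP1, was at 11.7 and 11.3 FPKM with NC and at 11.4 and 11.7 FPKM with A3B OE. USP1 per WDR48 was thus 0.829 and 0.881 with NC and 1.18 and 1.32 with A3B OE.

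Of the 8 genes of the POLQ end-joining list all 8 had a log2 fold change above 0 and 4 rose, with a median of 0.49. These were LIG1 (0.87, limma, adjusted p = 0.00373), XRCC1 (0.70, limma, adjusted p = 0.00725), PARP1 (0.63, limma, adjusted p = 0.0226) and FEN1 (0.57, limma, adjusted p = 0.0156). LIG1 and FEN1 also serve lagging-strand replication, and XRCC1 and PARP1 single-strand break repair. Of 10 genes of fork reversal and protection, 4 rose, 0 fell and the median was 0.08. BLM, a helicase of the RecQ family, rose most, from a mean of 1.20 to 3.37 FPKM (0.99, limma, adjusted p = 0.00932), followed by RADX, which binds single-stranded DNA (0.94, limma, adjusted p = 0.0475), and the nuclease DNA2 (0.69, limma, adjusted p = 0.0228). SMARCAL1 and ZRANB3, the fork-remodelling translocases, were not among them. Of 6 tested genes among other gap-filling polymerases and Pol zeta subunits, POLD2, a subunit that Pol zeta shares with the replicative Pol delta, rose (0.33, limma, adjusted p = 0.0299).

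**Figure D3:**
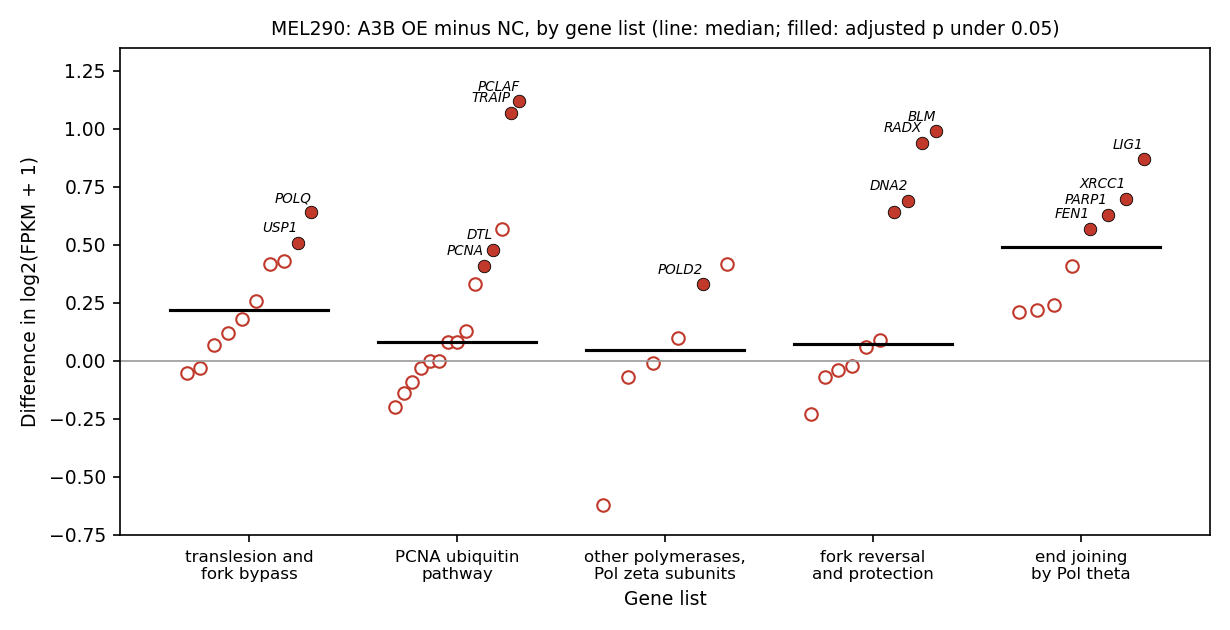
Difference in log2(FPKM + 1) between A3B OE and NC cells of MEL290 for the 10 translesion and fork bypass genes and 4 lists of genes that work beside them, each point a gene, the line the list median, filled points with an adjusted p under 0.05, those described in the text named. All filled points lie above 0, and the 3 highest are PCLAF, TRAIP and BLM.

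Cell cycle genes moved with A3B overexpression beside POLQ and USP1. Over 42 S phase genes, from which USP1 was removed, the median FPKM was 8.60 and 8.51 in the NC libraries and 13.2 and 13.0 in the A3B OE libraries. Of 41 of these genes tested, 28 rose and 0 fell (median change 0.62 on the log2 scale). Of 54 G2/M genes 49 rose and 0 fell, their median being 0.90. Over all genes tested 10.3% were called higher and 7.49% lower. The S phase genes include 2 of the PCNA ubiquitin list (PCNA and DTL), 2 of the fork reversal list (BLM among them), 1 of the other polymerases (POLD3) and 1 of the end-joining list (FEN1). The log2 fold changes of POLQ, 0.64, and USP1, 0.51, lay near the S phase median, those of MAD2L2 (0.43), PRIMPOL (0.42) and HLTF (0.26) were lower and not called, and those of REV1, POLI, POLK, REV3L and RAD18 were between -0.05 and 0.18. The part of the cell cycle genes in the values of POLQ and USP1 was not tested.

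The same genes were then compared after A3B depletion in 92.1. None of the 10 was called (0 of 10), against a background of 0.00862% of the 11605 genes tested, which is APOBEC3B alone, and 0 of the 10 had an unadjusted p under 0.05, against 2.9% of all genes tested (limma). Of the 10 genes, 9 had a log2 fold change above 0 with shA3B, against 50% of all genes tested, with a median of 0.22 against 0.00. PRIMPOL is among the 9, with a change that rounds to 0.00. Of the 10, 4 had non-overlapping groups with shA3B higher, against 15.3%, and 0 with shA3B lower, against 13.3%. With the GC and length dependence subtracted, the median was 0.13 and 8 were above 0. With quantile normalization the median was 0.19 and 8 were above 0. The canonical transcripts of 9 of the genes have a GC content between 36.2% and 43.0%, and that of MAD2L2 60.2%. In the same comparison 36 of 42 S phase genes, 38 of 53 G2/M genes and 12 of 15 genes of the PCNA ubiquitin list were above 0. Of the end-joining list 2 of 8 were.

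The 4 genes whose libraries did not overlap were USP1, HLTF, RAD18 and POLI. USP1 was at 21.5 and 21.0 FPKM with shCtrl and at 23.2 and 27.3 FPKM with shA3B, a log2 fold change of 0.23 (95% interval -0.08 to 0.55, limma, adjusted p = 1). HLTF was at 19.2 and 21.2 FPKM and at 23.8 and 24.2 FPKM, a change of 0.24 (95% interval -0.06 to 0.55). RAD18 was at 4.85 and 5.88 FPKM and at 6.28 and 6.44 FPKM. POLI was at 6.36 and 6 FPKM and at 6.94 and 7.84 FPKM. All 4 were slightly higher with less A3B.

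For the others the groups overlapped. POLQ was at 3.07 and 3.05 FPKM with shCtrl and at 3.01 and 4.27 FPKM with shA3B, so that 1 library of shA3B lay just below the controls and the other above them. Without shA3B replicate 2 its log2 fold change, 0.18, became -0.02. REV3L was at 10.4 and 7.63 FPKM and at 9.43 and 13.5 FPKM, and its interval, -0.12 to 0.75, was the one that reached highest. POLK was at 4.4 and 3.29 FPKM with shCtrl and at 4.37 and 5.08 FPKM with shA3B. MAD2L2 was at 71.0 and 69.1 FPKM and at 84.3 and 69.9 FPKM. REV1 was at 8.79 and 8.81 FPKM and at 7.03 and 9.10 FPKM, the only gene of the 10 with a log2 fold change below 0 (-0.12, 95% interval -0.48 to 0.24), and without shA3B replicate 1 it was 0.04. PRIMPOL, at 4.6 and 6.8 FPKM and at 6.23 and 5.07 FPKM, had a change of 0.00. Over the lists beside them, 0 genes were called, and the S phase median moved from 25.5 and 25.4 FPKM with shCtrl to 27.2 and 28.5 FPKM with shA3B.

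Whether the effect of A3B differed between the lines was tested in 1 fit over the 8 libraries, with each line counted as A3B-high minus A3B-low. USP1 was the 1 gene of the 10 called, against 5.57% of the 12697 genes tested. Its effect was 0.75 higher in MEL290 than in 92.1 (standard error 0.17, 95% interval 0.37 to 1.13, limma, adjusted p = 0.042). In the same fit 3.59% of all genes tested were called higher. Among 42 S phase genes 16 were, and among 54 G2/M genes 38, with medians of 0.66 and 1.00. Their part in the difference of USP1 was not tested. When each perturbation was instead counted against its own control, the difference for USP1 was 0.28 (limma, adjusted p = 0.41), since its values were above the control in both. POLQ had the largest difference of the 10, 0.82 (95% interval 0.32 to 1.31), and did not pass (limma, adjusted p = 0.068). Cell line, kind of perturbation and vector cannot be told apart here. USP1 did not pass with the replicate block within each line (limma, adjusted p = 0.082), without the filter on low FPKM (limma, adjusted p = 0.062) or with a pseudocount of 0.1 (limma, adjusted p = 0.051). With any 1 of the 8 libraries left out it no longer passed either, with differences between 0.63 and 0.86 and adjusted p between 0.051 and 0.14 (limma), and POLQ passed without shA3B replicate 1 (1.01, limma, adjusted p = 0.047).

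The control libraries of the 2 lines differed far more. Between MEL290 NC and 92.1 shCtrl cells, 6 of the 10 genes were called, 3 higher and 3 lower in MEL290, against a background of 73% of the 12352 genes tested, so that a called gene is the common case in this comparison. Called higher were 33.7% of all genes and called lower 39.3%. At an unadjusted p under 0.05 there were 7 of the 10, against 75.5%, and 3 of the 10 had a difference above 0, against 47.1%. The libraries of the groups did not overlap for 3 genes higher in MEL290, against 40.7%, and for 5 lower, against 46.6%. The Y-family polymerases REV1, POLI and POLK were higher in MEL290, and MAD2L2, USP1 and POLQ were lower. POLH, a Y-family polymerase outside the 10 genes, was not called (0.28, limma, adjusted p = 0.099). Vector and cell line cannot be told apart in it.

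**Figure D4:**
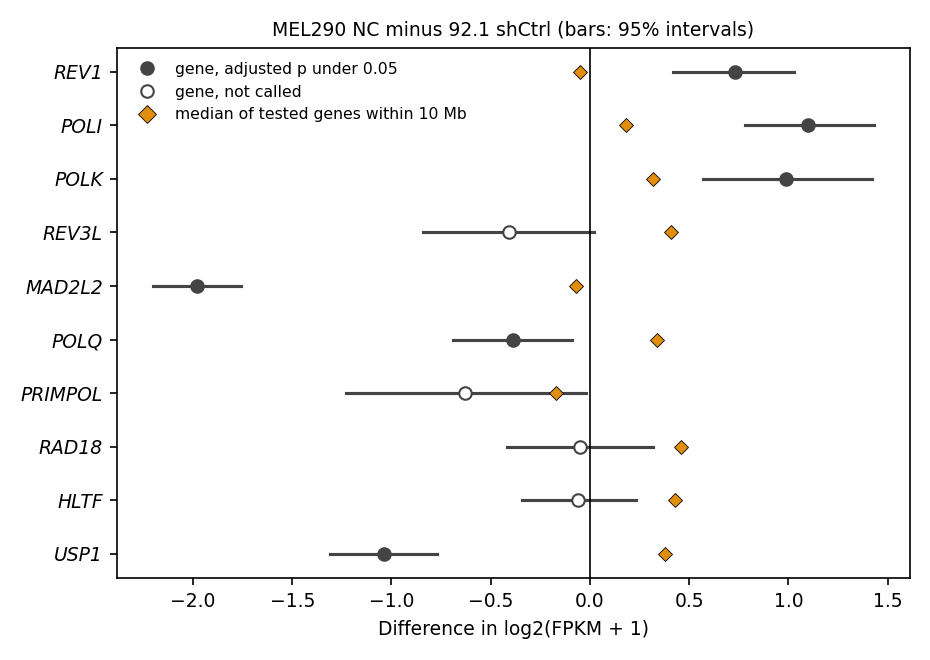
Difference in log2(FPKM + 1) between MEL290 NC and 92.1 shCtrl cells for each gene with its 95% interval, filled where the adjusted p is under 0.05, and as a diamond the median difference of all tested genes that start within 10 Mb. MAD2L2 (-1.98) and USP1 (-1.04) lie far below their neighbours, and POLI (1.10) and POLK (0.99) above theirs.

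MAD2L2 showed the largest difference, 4.13 times higher with shCtrl in 92.1 than with NC in MEL290 (log2 fold change -1.98, standard error 0.09, limma, adjusted p = 2.1e-05). With the GC and length dependence subtracted it was -1.60 (limma, adjusted p = 3.3e-05). The 142 tested genes within 10 Mb of MAD2L2 on chromosome 1 had a median of -0.07. REV3L, its partner in Pol zeta, was also lower in MEL290 without passing (-0.41, 95% interval -0.84 to 0.02, limma, adjusted p = 0.075), and did pass with the GC and length dependence subtracted (-0.81, limma, adjusted p = 0.0016) and without shCtrl replicate 2 (-0.61, limma, adjusted p = 0.019). Without shCtrl replicate 1 it was -0.21 (limma, adjusted p = 0.25). The FPKM ratio of MAD2L2 to REV3L ran from 5.16 to 9.06 in the 92.1 libraries and from 2.60 to 4.17 in the MEL290 libraries. This ratio was not corrected for GC content or length. The canonical transcript of MAD2L2 has 60.2% GC and 1053 bases, and that of REV3L 39.9% and 10706 bases. POLD2 and POLD3, the subunits Pol zeta shares with Pol delta, were lower in MEL290 too (-1.19 and -0.68, both called).

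USP1 was 2.17 times higher in 92.1 (log2 fold change -1.04, standard error 0.11, limma, adjusted p = 0.00041), while the 64 tested genes within 10 Mb had a median of 0.38 in the other direction. Its partner WDR48 was higher in MEL290, with means of 5.07 FPKM with shCtrl and 11.5 FPKM with NC (1.06, limma, adjusted p = 0.0036). USP1 per WDR48 thus ran from 3.53 to 5.13 in the 92.1 libraries and from 0.829 to 1.32 in those of MEL290. PCNA, the shared substrate, was at a mean of 204 FPKM with shCtrl and 75.4 FPKM with NC (-1.42, limma, adjusted p = 3e-05). Of 42 S phase genes, which include PCNA but not USP1, 33 were called lower in MEL290 and 1 higher, with a median of -1.31. Of 54 G2/M genes, 32 were called lower and 8 higher, with a median of -0.49. The part of the cell cycle genes in the difference of USP1 was not tested.

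Among the Y-family polymerases, POLI was 2.34 times higher in MEL290 (1.10, standard error 0.13, limma, adjusted p = 0.00067), POLK 2.24 times (0.99, standard error 0.17, limma, adjusted p = 0.0031) and REV1 1.74 times (0.73, standard error 0.12, limma, adjusted p = 0.0028). For each of the 3 all 4 MEL290 libraries lay above all 4 of 92.1. Under the GC and length correction the differences were smaller and still passed, 0.76 for POLI, 0.51 for POLK and 0.52 for REV1 (limma, adjusted p = 0.0024, 0.012 and 0.0079). REV1 shares 850 exonic bases, 18.0% of its canonical exons, with EIF5B on the other strand, and EIF5B was itself higher in MEL290 (2.84, limma, adjusted p = 1.6e-05), and its part in the difference of REV1 was not tested. The make-up of the catalytic subunits summed here, without POLH, differed accordingly. Of the summed FPKM of REV1, REV3L, POLI, POLK and POLQ, REV3L took between 26.5% and 34.0% in the 92.1 libraries and between 13.0% and 14.0% in those of MEL290, and POLI between 19.3% and 22.5% and between 25.9% and 32.2%.

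POLQ, RAD18 and HLTF lie on chromosome 3, whose 679 other tested genes had a median of 0.31 higher in MEL290. POLQ was lower in MEL290 (-0.39, 95% interval -0.69 to -0.09, limma, adjusted p = 0.028), and did not pass with the replicate block (limma, adjusted p = 0.054) or with any 1 of the 4 libraries left out (limma, adjusted p between 0.11 and 0.20). Under the GC and length correction it was -0.73 and passed (limma, adjusted p = 0.0026). RAD18 and HLTF had differences of -0.05 (95% interval -0.42 to 0.32) and -0.06 (95% interval -0.34 to 0.23). The medians of the tested genes within 10 Mb of POLQ, RAD18 and HLTF were 0.34, 0.46 and 0.43. PRIMPOL had -0.63 (95% interval -1.23 to -0.02, limma, adjusted p = 0.059), and passed without shCtrl replicate 1 and without NC replicate 2 (-0.86 in each, limma, adjusted p = 0.036 and 0.0033). Without shCtrl replicate 2 or NC replicate 1 it was -0.39 (limma, adjusted p = 0.24 and 0.19). Of 9 other settings 4 called PRIMPOL. Among these were the replicate block (limma, adjusted p = 0.006) and the GC and length correction (-0.82, limma, adjusted p = 0.031). CENPU, with which PRIMPOL shares bases, was lower in MEL290 as well (-1.70, limma, adjusted p = 0.00017).

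Over the 4 groups, USP1 kept a strict order in which no neighbouring groups overlapped, shA3B above shCtrl above A3B OE above NC. MAD2L2 had the same order, with shA3B and shCtrl overlapping. POLQ was highest with A3B OE, and A3B OE, shA3B and shCtrl overlapped from one to the next, with NC apart below. REV1 ran from A3B OE through NC to shCtrl and shA3B, of which the last 2 overlapped. HLTF was highest with shA3B and then A3B OE, both above shCtrl and NC, which overlapped.

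The genes whose values followed each of the 10 most closely were taken by Pearson correlation over the 8 libraries after the mean of each cell line was removed, over 9892 or 9893 candidates averaging 4 FPKM or more. The points share 2 lines and 4 groups, and the values are a description. Nearest to POLQ were FAM111B (0.995), PTGES3 (0.984) and PODXL (0.983), and nearest to USP1 were GBE1 (0.986), the kinetochore gene KNL1 (0.986) and C4orf46 (0.982). MAD2L2 was closest to ESYT1 (0.994) and TRIM37 (0.971), and HLTF to THBS1 (0.981), TGFB1 (0.979) and NOL4L (0.974). REV3L was closest to USP16 (0.988), KIF5B (0.980) and ST3GAL6 (0.977), and POLK to CAMSAP2 (0.984), GABPA (0.980) and NAE1 (0.974). POLI was closest to UFL1 (0.961), TFB2M (0.959) and ZNF155 (0.950), REV1 to CHN1 (0.958), ARHGEF1 (0.943) and BRF2 (0.939), PRIMPOL to FAM98C (0.976), RPP21 (0.964) and NR2C2AP (0.950), and RAD18 to TIMM9 (0.953), ZCCHC10 (0.953) and GSDMB (0.926). Correlations above 0.9 were common for POLQ (190 genes) and USP1 (183 genes) and rare for RAD18 (6 genes) and REV1 (10 genes).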

How the data were processed

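RNA-seq of 8 libraries of 92.1 and MEL290 cells was analysed. The deposited FPKM values per gene came from STAR alignments to GRCh38 that the authors passed to Cufflinks. The methods name Ensembl release 75, while the files hold newer symbols, so the annotation used is uncertain, and tool versions are not given in the sources used here. Depth is therefore known only roughly. FPKM is not a count, and count tests were left out. On the log2(FPKM + 1) scale, genes with at least 1 FPKM in at least 2 libraries of a fit were kept, and limma 3.58.1 (R 4.3.3, eBayes with a trend) was fitted to each line, to the 4 control libraries, and to all 8 libraries for the difference between lines, with Benjamini-Hochberg adjustment over all genes tested and a threshold of 0.05. The test was checked on simulated data. The 10 genes and the lists were chosen with earlier results of these data known. All 10 genes are named, from each list at most the 4 called genes with the largest change plus PCNA, and for each gene the 3 most alike, except that a few of these genes are not reported here. WDR48, POLD3, POLH, SMARCAL1, ZRANB3 and the genes that overlap a neighbour were named after their values were seen. S phase and G2/M lists are those of Seurat 5.3.0. Gene positions, GC content and transcript length are from GENCODE release 44, in which 19020 of the 19952 symbols were found, and promoters from RefSeq. Same-numbered replicates were not shown to pair (correlation of their deviations 0.19 in 92.1 and -0.03 in MEL290), so the replicate block is an alternative.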

Additional observations from a re-analysis of the deposited data

Results flagged for a closer look

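The effect of A3B-high minus A3B-low on USP1 was 0.75 higher on the log2(FPKM + 1) scale in MEL290 than in 92.1, by a test of the difference itself in 1 fit over the 8 libraries (standard error 0.17, limma, adjusted p = 0.042). The S phase and G2/M genes had medians of 0.66 and 1.00 in the same fit, and their part in the difference of USP1 was not tested. In MEL290 the libraries with more A3B had the higher USP1, and in 92.1 those with less A3B did, where the change of 0.23 was not called. With each perturbation counted against its own control the difference was 0.28 (limma, adjusted p = 0.41). The call was lost with the replicate block (limma, adjusted p = 0.082), without the filter on low FPKM (0.062), with a pseudocount of 0.1 (0.051) and with any 1 of the 8 libraries left out (0.051 to 0.14). Cell line, kind of perturbation and direction of the A3B change cannot be told apart.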

How the results depend on the processing

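Of 550 values of the 10 genes under the alternatives, 499 kept direction and call, 23 no longer passed, 13 newly passed and 15 changed sign. The sign changes were all of values that lay between -0.12 (REV1 in 92.1) and 0.18 (POLQ in 92.1) in the fits described above. PRIMPOL in 92.1, with a change of 0.00, is not counted among them and ran from -0.24 to 0.24 when single libraries were dropped. With quantile normalization HLTF changed to 0.01 between the control lines, and with the GC and length dependence subtracted REV1 changed to -0.03 in the difference between the lines. When single libraries were dropped, the log2 fold changes that turned sign ranged in 92.1 from -0.29 to 0.04 for REV1 and from -0.02 to 0.38 for POLQ, in MEL290 from -0.21 to 0.16 for POLI, from -0.21 to 0.11 for POLK and from -0.04 to 0.19 for REV3L, between the control lines from -0.17 to 0.07 for RAD18 and from -0.12 to 0.01 for HLTF, and in the difference from -0.10 to 0.23 for REV1. In MEL290 the 2 called genes of the 10 became 0 without the filter on low FPKM, which tests more genes, and 1 with the replicate block, and ran from 0 to 3 when single libraries were dropped. Over all genes tested in MEL290, the 2065 called became 915 without the filter and from 809 to 1979 when single libraries were dropped, and with the GC and length dependence subtracted the share higher fell from 57.9% to 48.9%. In 92.1, 0 of the 10 genes were called under every alternative run, while the 1 gene called over all became 2 without the limma trend, 0 without the filter, 37 with the replicate block and from 2 to 9 when single libraries were dropped. In the difference between the lines, the 1 called gene of the 10 became 0 without the filter, 0 with a pseudocount of 0.1, 0 with the replicate block, 0 with the opposite orientation of the 92.1 effect, 2 with the GC and length dependence subtracted and from 0 to 1 when single libraries were dropped. The 707 genes called there over all became 312 with the replicate block, 1076 with that dependence subtracted and from 67 to 424 when single libraries were dropped. The share called higher there, 64.5%, became 53.8% with that dependence subtracted. Between the control lines, the 6 called genes of the 10 stayed between 5 and 8. The cause of these changes was not tested, also where a fit has fewer libraries or tests more genes. The replicate block changed no other call of the 10 genes than POLQ in MEL290, POLQ and PRIMPOL between the control lines and USP1 in the difference. The loss of either A3B OE library ended both calls in MEL290. Depth is known only roughly, and RNA per cell was not measured.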
